A study of Mus musculus with 18 samples.

Results

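The lesioned right side of the mouse brain 4 h after a photothrombotic stroke was compared with the right side of sham mice. Members were the libraries that the labels give as right-side punches 4 h after stroke (2, 3 and 6) and as right-side sham punches (1, 2 and 3), 6 of the 18 libraries in all, and the 14016 genes that reached 1 FPKM in at least 3 libraries were tested. FPKM scales the sequenced fragments of a gene by its transcript length and by the total of the library. All mice were 9-week-old male C57BL/6 animals, an inbred laboratory strain, and no transgene or deletion is named. The stroke mice received 100 mg/kg of the light-sensitive dye rose bengal by intraperitoneal injection, 5 min ahead of 15 min of light (532 nm, 40 mW, 2 mm fiber) centred 2 mm lateral of bregma, the skull point used for orientation, on the right. Punches were placed with the help of magnetic resonance images, so each holds all cell types of a small piece of tissue. Whether the sham mice received dye or light is not stated separately. A second control, punches of the left side (libraries 1, 3 and 5), is titled sham but described as taken from mice with a stroke, with no time, and is called contralateral left here. The lesion at 1 day (libraries 1, 3 and 4) served to ask which differences had another size later.

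In photothrombosis the excited dye damages the vessel wall, platelets clot the vessels under the light spot, and the tissue below loses its blood flow within minutes. The earliest RNA response of such tissue is known to come from factors already present in cells: the AP-1 and NF-kappaB transcription factors, heat shock factor, which senses unfolded proteins, the Nrf2 regulator of antioxidant genes, and p53. In parallel the brain signals through the hypothalamus and pituitary to the adrenal gland, which releases glucocorticoids, and their receptor switches on genes in neurons, glia and vessels. Infiltration by blood leukocytes and the reactive state of astrocytes are known as later steps.

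The rough nominal depth of the 6 libraries was 17.6 to 29.9 M fragments, between 12423 and 12877 genes reached 1 FPKM, and 28.9% to 33.1% of the summed FPKM came from mitochondrially encoded RNAs. Library 4 h 6, the deepest, stood apart from the other libraries: its correlation with 4 h 2 and 4 h 3 over all genes tested was 0.970 and 0.971, against 0.986 between those 2 and 0.987 to 0.989 among the sham libraries. Entries over a ribosomal RNA locus of chromosome 17 also differed, since AY036118 read 2597, 2325 and 3445 FPKM in sham and 656, 765 and 856 FPKM at 4 h. The groups did not overlap there, but the difference (log2 fold change -1.86) was not called, and its part in the other results was not tested. Neuronal markers were high in every library, with Slc17a7, the vesicular glutamate transporter of cortical neurons, at 115, 99.4 and 76.5 FPKM in sham and 107, 109 and 121 FPKM at 4 h.

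Of the 14016 genes, 306 (2.18%) were called at 4 h, meaning an adjusted p under 0.05 by limma with Benjamini-Hochberg adjustment. Of these, 185 (1.32%) were higher and 121 (0.863%) lower than in sham. These shares of all genes tested are the background for the counts of list members called against sham. The rises were the larger changes: 74 reached a log2 fold change of 1 and 14 reached 2, with a median of 0.90, while 33 of the lower genes fell by at least 1 and 0 by 2, with a median of -0.71. Fold changes are differences of mean log2(FPKM + 1), which understate the change of genes with low values. An unadjusted p under 0.05 was reached by 16.5% of the genes tested. In every called gene the 3 lesion values lay beyond the 3 sham values, a separation that 18.8% of all genes tested showed upward and 17.2% downward. With values rescaled after removing the mitochondrially encoded genes, the median of all genes moved from 0.01 to 0.10 and the split was 149 higher and 58 lower. The count was 164, 118 and 90 without sham 1, 2 and 3, and 194, 144 and 169 without 4 h 2, 3 and 6. Against the contralateral left libraries the call was made for 176 genes, 148 higher and 28 lower.

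**Figure D1:**
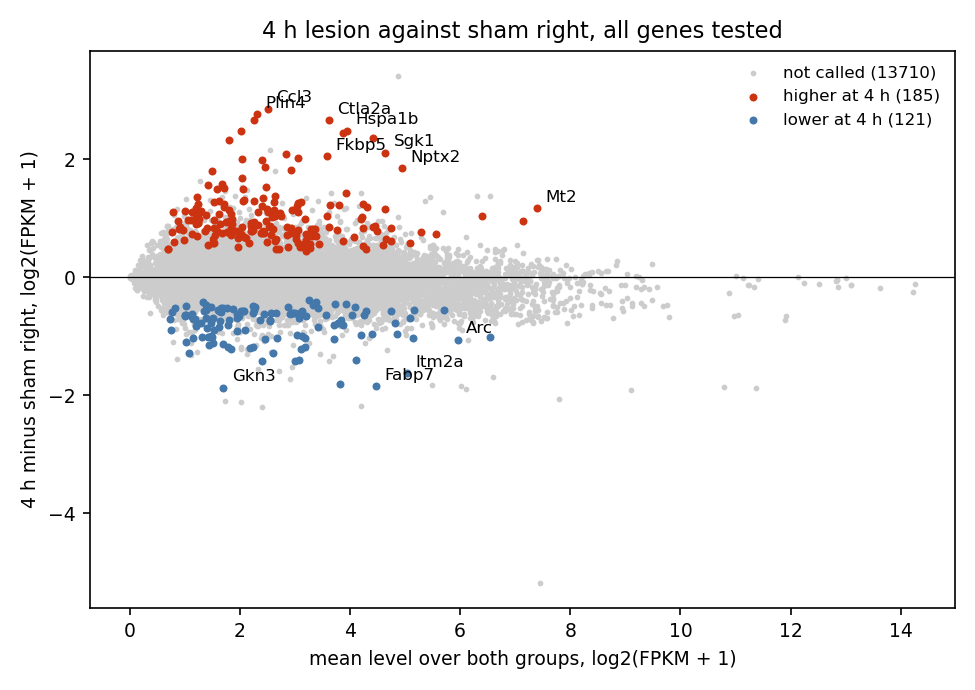
Each point is a gene, with its mean level over the 6 libraries as log2(FPKM + 1) on the horizontal axis and the difference of 4 h from sham right on the same scale on the vertical axis. Called genes (185 higher in red, 121 lower in blue) spread further above 0 than below it, and the grey points furthest from 0 are short entries that vary between replicates.

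Genes called higher had shorter and less expressed gene models than the genes tested. Of the 185, 168 were protein-coding, as were 111 of the 121 lower genes. The 168 had a median genomic span of 16210 bp and a median of 7 exons, against 26801 bp and 6 exons in the 111 lower genes and 24436.5 bp and 9 exons in the 12292 protein-coding genes tested. A span under 5 kb was found for 22.6% of the higher, 11.7% of the lower and 11.5% of the tested genes. Their median sham level was 2.45 FPKM for the higher and 5.40 FPKM for the lower genes, against 5.52 FPKM for those tested. These are descriptions over genes, with no test.

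Genes known to respond to glucocorticoids made up the list with the most calls. Of 20 listed genes tested, 14 rose, 0 fell, and 19 were higher in all 3 lesion libraries than in any sham library. Of all genes tested, 18.8% were higher in that way. The median log2 fold change of the list was 1.097, against 0.01 for all genes. The exception in direction was Nr3c1, which encodes the glucocorticoid receptor itself, at 17.5, 19.2 and 17.7 FPKM in sham and 12.5, 13.6 and 10.096 FPKM at 4 h (log2 fold change -0.56, adjusted p = 0.162). Some of the members (Cdkn1a, Plin4, Lcn2, Mt2) were known to be high in these data when the list was made, so the count is no independent evidence.

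Sgk1 encodes a kinase that regulates ion channels and transporters and is a classical glucocorticoid target. It read 7.51, 8.93 and 8.44 FPKM in sham and 37.9, 32.4 and 48.3 FPKM at 4 h, well apart from each other, for a log2 fold change of 2.11 ± 0.30 (SE; n = 3 per group; limma adjusted p = 0.00166). Fkbp5, a co-chaperone that holds the glucocorticoid receptor in a state of low affinity and is itself induced by it, went from 3.798, 3.60 and 3.30 FPKM to 13.4, 17.96 and 23.4 FPKM (2.05 ± 0.30, limma adjusted p = 0.00195). Both genes had their sham libraries within a narrow band and their lesion libraries several fold above it. Plin4, a coat protein of lipid droplets, was close to absent in sham (0.188, 0.181 and 0.199 FPKM) and reached 5.08, 5.104 and 13.2 FPKM (2.76 ± 0.41, limma adjusted p = 0.00213). Library 4 h 6 had the highest value of all 3 genes.

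Cdkn1a, the p21 inhibitor of the cell cycle and also a p53 target, read 6.68, 5.93 and 4.78 FPKM in sham and 25.7, 31.2 and 47.3 FPKM at 4 h (2.36 ± 0.35, limma adjusted p = 0.00213). The remaining called members were Lcn2 (2.32), which encodes the iron-siderophore binding protein lipocalin 2, the stress kinase gene Map3k6 (1.28), Sult1a1 (1.25), whose enzyme sulfates small phenols, Errfi1 (1.22), an inhibitor of epidermal growth factor receptors, and Nfkbia (1.19), the inhibitor of NF-kappaB. Mt2 (1.17), a metallothionein, the transcription factor gene Klf9 (1.03), Angptl4 (1.001), an inhibitor of lipoprotein lipase, Tsc22d3 (0.86), also called GILZ, and Pdk4 (0.58), which slows entry of pyruvate into mitochondria, completed the 14. Zbtb16 (0.91, adjusted p = 0.197), Ddit4 (0.85, 0.204), Per1 (0.66, 0.195), Mertk (0.52, 0.0774) and Htra1 (0.45, 0.0692) were not called, although all of them were higher in every lesion library than in every sham library.

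The promoter of Sgk1 is shown because it holds the full palindrome to which the glucocorticoid receptor is known to bind. RefSeq gives 6 starts for Sgk1, and the 250 bases before 1 of them held the match while those before the other 5 did not. That stretch (GRCm38.p6, chr10:21993640-21993889, plus strand) is given 5′ to 3′, with the match to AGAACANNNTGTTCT in capitals, 189 bases before the start.
Sgk1: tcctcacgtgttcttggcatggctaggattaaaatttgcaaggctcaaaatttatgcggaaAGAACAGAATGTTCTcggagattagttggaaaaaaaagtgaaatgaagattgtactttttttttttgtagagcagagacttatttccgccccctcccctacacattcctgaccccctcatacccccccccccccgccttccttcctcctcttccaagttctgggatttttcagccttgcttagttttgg
This palindrome reads the same on both strands and occurred in 3 of 32851 RefSeq promoters of this length (0.00913%), and in 1 of the 139 called higher genes with a promoter in the table. It was searched after the values had been seen, and a match describes letters, not binding.

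**Figure D2:**
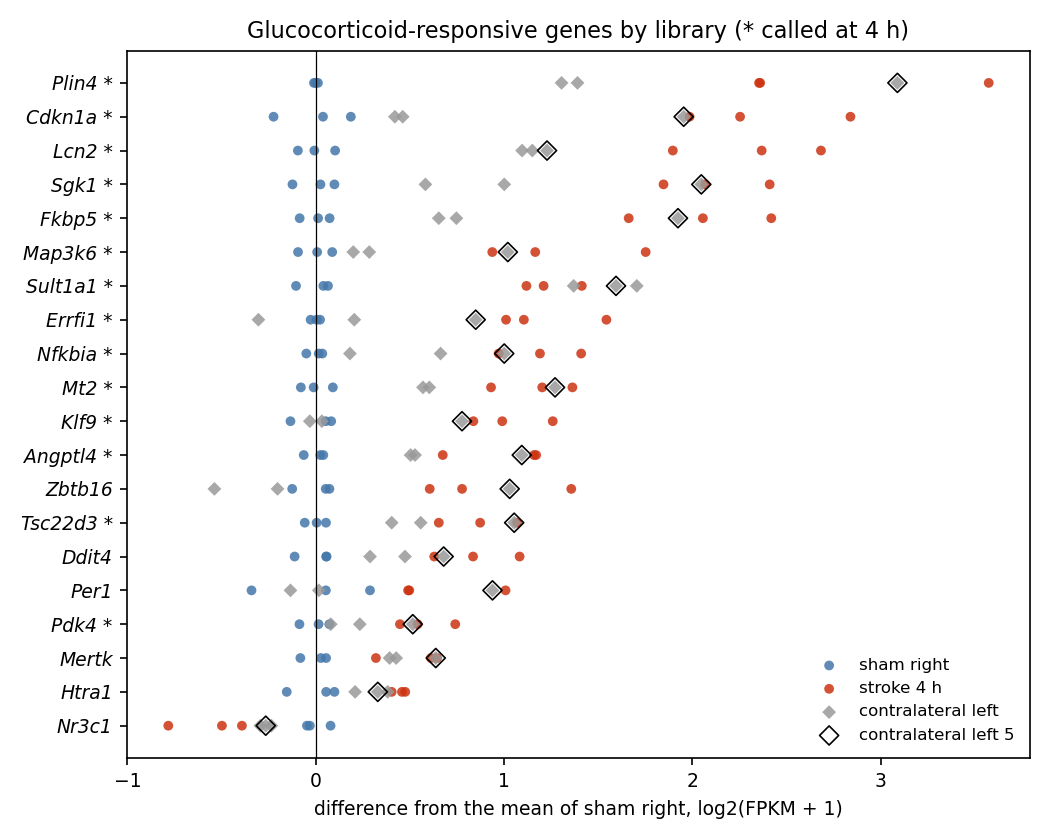
Each row is a gene of the glucocorticoid list, and each point is a library's difference from the mean of the 3 sham right libraries in log2(FPKM + 1). The 4 h libraries (red) lie right of the sham libraries (blue) in all rows except Nr3c1, where they lie left, and contralateral left 5 (outlined diamonds) lies near them while contralateral left 1 and 3 lie closer to sham in most rows.

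The rise of these genes was not uniform across the controls. The median difference of the 20 genes from the sham mean was 0.97, 1.05 and 1.21 in 4 h 2, 3 and 6, and 0.35, 0.47 and 1.02 in contralateral left 1, 3 and 5. Sgk1 read 12.9, 17.6 and 37.3 FPKM and Fkbp5 6.65, 6.17 and 16.3 FPKM in those 3 left-side libraries, so library 5 was as high as some lesion libraries. With contralateral left as the control 1 of the 20 was called (median 0.48), and with both control groups together 8 were. The count was 11, 9 and 6 without sham 1, 2 and 3, and 11, 10 and 11 without 4 h 2, 3 and 6. In at least 1 of these 6 fits the calls ended of Nfkbia (without sham 2, sham 3 or 4 h 6; largest adjusted p 0.061), Errfi1 (without sham 3 or 4 h 6; 0.0501), Sult1a1 (without sham 2, sham 3 or 4 h 3; 0.0672), and Klf9 and Map3k6 (without sham 3; 0.0517 and 0.0533). Mt2 and Tsc22d3 lost theirs in all fits except that without 4 h 6 (largest 0.118 and 0.111), and Pdk4 in all 6.

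Of 24 heat shock chaperone and co-chaperone genes 3 rose and 0 fell. Without overlap of the groups 6 were higher and 9 lower at 4 h, against 18.8% and 17.2% of all genes tested, and their summed level was 1330 to 1481 FPKM at 4 h and 1505 to 1572 FPKM in sham. The median was -0.11; rescaled without the mitochondrial genes, or with contralateral left as the control, the median was above 0. Hspa1a and Hspa1b, neighbouring and near-identical genes of the inducible chaperone Hsp70, can share reads, so their separate values are uncertain. Hspa1a read 3.73, 3.43 and 3.43 FPKM in sham and 23.0, 24.8 and 23.0 FPKM at 4 h, and Hspa1b 4.17, 3.51 and 3.43 FPKM against 25.0, 26.3 and 24.4 FPKM. Within each group the values lay close together, and the log2 fold changes were 2.44 ± 0.18 and 2.48 ± 0.19 (limma adjusted p = 3.09e-06 and 4e-06). Hspb1, the small chaperone Hsp27, read 4.15, 4.54 and 4.62 FPKM against 8.32, 10.7 and 7.39 FPKM (0.84 ± 0.17, limma adjusted p = 0.0138). The call of Hspb1 ended without sham 1, 2 or 3 or without 4 h 3 (largest adjusted p 0.0827). Members with lower values, such as Hspe1 (-0.81), Dnaja1 (-0.34) and Hsp90aa1 (-0.29), were not called.

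The promoters of Hspa1a and Hspb1 are shown because heat shock factor is known to bind inverted repeats of GAA. They are the 250 bases before the RefSeq start, Hspa1a at chr17:34972157-34972406 (minus strand) and Hspb1 at chr5:135887669-135887918 (plus strand) of GRCm38.p6, 5′ to 3′ along the gene, with matches to GAANNTTC in capitals.
Hspa1a: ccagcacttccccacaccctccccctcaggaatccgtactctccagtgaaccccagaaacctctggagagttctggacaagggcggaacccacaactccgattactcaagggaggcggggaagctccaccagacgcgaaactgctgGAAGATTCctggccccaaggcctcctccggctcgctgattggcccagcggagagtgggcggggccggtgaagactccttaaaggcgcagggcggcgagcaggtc
Hspb1: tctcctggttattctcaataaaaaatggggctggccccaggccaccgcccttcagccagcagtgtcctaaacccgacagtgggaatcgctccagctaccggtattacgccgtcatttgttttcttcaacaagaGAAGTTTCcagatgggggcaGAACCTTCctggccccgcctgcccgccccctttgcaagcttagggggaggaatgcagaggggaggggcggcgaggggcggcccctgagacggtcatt
Hspa1a held 1 match, 104 bases before the start, and Hspb1 held 2, the outer of them 117 bases before it. Of the members that were not called, Hspd1, Hspe1 and Dnaja1 also held GAANNTTC before a RefSeq start. On both strands GAANNTTC was found in 6.69% of all promoters. Counting a gene once for any of its starts, 5.96% of the 9964 tested genes with a promoter in the table held it. Among these, 6.47% of the 139 called higher and 6.38% of the 94 called lower genes did. The other spacing searched, TTCNNGAA, was found in 7.17% of all promoters and 6.995% of the tested genes. Its share was 10.8% of the called higher and 5.32% of the called lower genes.

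Among AP-1 and other early stress transcription factor genes, 8 of 22 rose and 1 fell (median 0.32), against 1.32% and 0.863% of all genes tested. The best separated were Maff, a small Maf protein, with 1.17, 0.261 and 0.570 FPKM in sham and 4.83, 5.55 and 6.20 FPKM at 4 h (2.00 ± 0.20, limma adjusted p = 5.76e-05), and Atf3, a stress-induced repressor of the ATF family, with 0.352, 0.262 and 0.159 FPKM against 3.62, 3.36 and 3.16 FPKM (1.80 ± 0.20, limma adjusted p = 0.000202). Both genes were low in sham and held similar values in all 3 lesion libraries. The AP-1 partners Fosb (1.07) and Fosl1 (0.77), the C/EBP factors Cebpb (1.303) and Cebpd (1.11), Mafk (0.86) and the survival gene Ier3 (0.71) rose as well. The founding AP-1 gene Fos did not differ detectably, at 13.6, 17.4 and 13.6 FPKM in sham and 11.1, 14.7 and 15.5 FPKM at 4 h (-0.11, adjusted p = 0.873), and Jun had -0.37. The count of rises was 6, 4 and 4 without sham 1, 2 and 3, and 5, 5 and 6 without 4 h 2, 3 and 6, and 4 with contralateral left as the control. Cebpb and the fall of the early gene Ier2 (-0.58) lost their call in all 6 fits, Cebpd in all except that without 4 h 6 (largest adjusted p 0.0855), Mafk without sham 2, sham 3 or 4 h 6 (0.127) and Ier3 without sham 2, sham 3, 4 h 2 or 4 h 3 (0.151).

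Genes that neurons switch on with activity went both ways. Of 20, 2 rose and 1 fell. Nptx2, a secreted pentraxin that clusters glutamate receptors at synapses, read 13.8, 12.1 and 10.6 FPKM in sham and 39.5, 63.0 and 39.1 FPKM at 4 h (1.84 ± 0.27, limma adjusted p = 0.00203). Arc, whose RNA travels to active dendrites, was lower in all 3 lesion libraries, with 91.6, 85.8 and 70.6 FPKM in sham against 36.7, 46.1 and 34.6 FPKM (-1.06 ± 0.26, limma adjusted p = 0.0439). The contralateral left libraries lay level with the lesion, at 45.5, 39.2 and 41.3 FPKM, and with them as the control the difference was -0.11 (limma adjusted p = 0.814). Nptx2 was thus several fold higher in the same punches in which Arc was lower, and Nr4a1, another early neuronal gene, had -0.34 (adjusted p = 0.468). Tiparp (0.57) was the other rise, and Adcyap1, the neuropeptide PACAP, fell by 1.0031 on the log2 scale. The calls of Arc and Tiparp ended in all 6 fits that left out a library, and that of Adcyap1 in all but the fit without 4 h 3 (largest adjusted p 0.127).

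Chemokine genes held the largest called rise. Of 17 tested, 4 rose and 1 fell. Ccl3, a chemokine that attracts myeloid cells, read 0.144, 0.404 and 0.370 FPKM in sham and 11.1, 11.8 and 4.39 FPKM at 4 h (2.86 ± 0.39, limma adjusted p = 0.00134), and the related Ccl4 0.228, 0.0493 and 0.293 FPKM against 5.73, 12.6 and 3.67 FPKM (2.67 ± 0.34, limma adjusted p = 0.000623). The monocyte attractant Ccl2 read 0.476, 0.116 and 0.171 FPKM against 3.14, 3.33 and 0.802 FPKM (1.36), and its neighbour Ccl12 1.97, 0.730 and 0.791 FPKM against 10.8, 9.94 and 2.46 FPKM (1.87). In all 4 genes library 4 h 6 was the lowest of the lesion libraries and still above every sham library. Cxcl12, which holds leukocytes and progenitors in place, fell, with 5.66, 5.42 and 5.62 FPKM in sham and 2.12, 1.93 and 1.64 FPKM at 4 h (-1.18 ± 0.20, limma adjusted p = 0.00567). The calls of Ccl2 and Ccl12 ended without sham 2, sham 3, 4 h 2 or 4 h 3 (largest adjusted p 0.111 and 0.154).

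None of the 10 tested cytokine genes of the IL-1, TNF and IL-6 families was called by limma (2 had an unadjusted p under 0.05). Of the 10, 3 were lower in every lesion library, against 17.2% of all genes tested. The summed level of the 19 listed genes in the data, those below the filter included, was 49.97 to 50.98 FPKM at 4 h and 61.9 to 68.3 FPKM in sham. Il1b, a main cytokine of activated microglia, read 0.434, 0.463 and 0.553 FPKM in sham and 0.623, 1.60 and 0.310 FPKM at 4 h, so that the groups overlapped (0.25, adjusted p = 0.612). Tnf and Il6 were below the filter, with Tnf at 0.309, 0.627 and 0.131 FPKM at 4 h and 0.155, 0 and 0 FPKM in sham. Cytokine receptor, SOCS and NF-kappaB genes, listed apart, were higher without most of them being called. Of all genes tested, 18.8% were higher in every lesion library. All 18 cytokine receptor and SOCS genes had a log2 fold change above 0 (median 0.39) and 12 were higher in every lesion library, but Socs3, the feedback inhibitor of STAT3 signals, was the 1 called (1.61, 0.900 and 0.981 FPKM against 3.59, 5.36 and 6.55 FPKM; 1.49 ± 0.27, limma adjusted p = 0.00771). All 14 NF-kappaB subunit and inhibitor genes were likewise above 0 (median 0.36), 11 without overlap, and 2 rose, Nfkbia and the apoptosis inhibitor Birc3 (0.48). Zfp36, which speeds the decay of cytokine RNAs, rose by 1.504 on the log2 scale.

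Of 18 activated microglia genes 3 rose (median 0.06). Cd14, the co-receptor for bacterial lipid and damage signals, read 1.93, 1.35 and 1.79 FPKM in sham and 9.77, 14.0 and 8.06 FPKM at 4 h (2.08 ± 0.23, limma adjusted p = 0.000231). The others were Ch25h (1.24), which makes 25-hydroxycholesterol, and the complement receptor C5ar1 (1.09). Of 18 homeostatic microglia genes 0 rose and 2 fell, and all 18 had a log2 fold change below 0 (median -0.31). The 2 were Gpr34, a lysophosphatidylserine receptor, with 11.5, 10.0 and 11.9 FPKM against 5.84, 3.17 and 2.30 FPKM (-1.41 ± 0.30, limma adjusted p = 0.0193), and Sall1 (-0.63), a transcription factor of microglial identity. P2ry12, the purinergic receptor by which resting microglia sense injury, overlapped, at 22.5, 10.485 and 9.19 FPKM in sham and 8.80, 9.33 and 5.36 FPKM at 4 h (adjusted p = 0.401). In a punch of mixed cells, fewer cells of a type and less RNA per cell cannot be told apart. Calls lost when 1 library was left out were Socs3 (without sham 3; adjusted p 0.0518), Zfp36 (without sham 2 or 4 h 6; largest 0.0584), Birc3, Gpr34 and Sall1 (each in all fits except that without 4 h 2; largest 0.225, 0.101 and 0.112) and C5ar1 (all except that without 4 h 6; largest 0.11).

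Stress pathways of DNA damage, oxidation and metals each moved through a few genes. Of 17 p53 target and Gadd45 genes, 4 rose: Cdkn1a, Gadd45b (1.22), Pmaip1 (0.93), which encodes the death protein Noxa, and Sesn1 (0.54), while the list's median was 0.08. Gadd45b read 6.12, 6.75 and 6.40 FPKM in sham and 14.0, 19.1 and 16.1 FPKM at 4 h (limma adjusted p = 0.00138). Of 20 Nrf2, heme and iron genes 3 rose. Hmox1, the enzyme that breaks down heme, read 2.51, 1.81 and 2.24 FPKM against 12.5, 15.3 and 5.30 FPKM (1.81 ± 0.39, limma adjusted p = 0.0218), and the others were Gclc (0.83), which starts glutathione synthesis, and Srxn1 (0.76), which repairs peroxiredoxins. Nqo1, another usual Nrf2 target, had -0.19. The calls of Hmox1 (all fits except that without 4 h 6; largest adjusted p 0.107), Srxn1 (without sham 2, sham 3, 4 h 2 or 4 h 3; 0.0812), Gclc and Sesn1 (all 6 fits) were lost when a library was left out.

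The metallothioneins Mt2 and Mt1, small proteins that bind zinc and copper, rose from a high level. Mt2 went from 96.4, 101 and 109 FPKM to 236, 264 and 195 FPKM (1.17 ± 0.26, limma adjusted p = 0.0281), and Mt1 from 97.7, 91.5 and 97.3 FPKM to 187, 199 and 171 FPKM (0.95, limma adjusted p = 0.0425). The contralateral left libraries held Mt1 at 171, 196 and 176 FPKM, within the range of the lesion, and with them as the control the differences were 0.35 for Mt2 and 0.04 for Mt1 (limma adjusted p = 0.408 and 0.936). The brain form Mt3 had -0.29 and was not called, and 2 of the 10 metal genes tested rose in all. The promoter of Mt2 is printed because metal-responsive factor is known to act through repeated short cores. The pattern searched, TGCNCNC, allows any base after TGC, so it is looser than a known core. On the 2 strands the promoter held 5 matches, in capitals, the outermost starting 223 bases before the RefSeq start (chr8:94172368-94172617, plus strand, GRCm38.p6).
Mt2: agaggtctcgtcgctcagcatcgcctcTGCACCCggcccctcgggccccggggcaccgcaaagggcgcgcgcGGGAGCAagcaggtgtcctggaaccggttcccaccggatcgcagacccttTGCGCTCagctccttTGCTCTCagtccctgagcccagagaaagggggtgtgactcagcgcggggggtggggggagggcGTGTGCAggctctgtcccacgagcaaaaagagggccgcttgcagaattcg
A pattern this short is common: at least 1 match was present in 44.4% of all promoters. Counting a gene once for any of its starts, 57.9% of the 9964 tested genes and 61.2% of the 139 called higher genes held it. The calls of Mt2 (all fits except that without 4 h 6; largest adjusted p 0.118) and Mt1 (all 6) ended when a library was left out.

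Of 18 hypoxia genes, 3 rose and the list's median was 0.14. Adm, the vessel-dilating peptide adrenomedullin, read 0.838, 1.103 and 0.920 FPKM in sham and 3.70, 3.97 and 3.11 FPKM at 4 h (1.23 ± 0.13, limma adjusted p = 0.000164). The others were Hif3a (1.17), a member of the hypoxia factor family, and Kdm3a (0.62), a histone demethylase. Vegfa, the main hypoxia-induced vessel growth factor, overlapped between groups at 8.24, 6.69 and 7.29 FPKM in sham and 6.83, 8.35 and 9.199 FPKM (0.11, adjusted p = 0.784). Of 23 glycolysis genes, Pfkfb3 (0.91), whose product activates glycolysis, was the 1 that rose. The calls of Hif3a, Kdm3a and Pfkfb3 ended in all 6 fits that left out a library, while that of Adm held in them.

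Clock genes rose in 3 of 18 cases and fell in 1. Per3 (1.20), Bhlhe41 (0.78) and Tef (0.58) were higher, and Arntl, the activator BMAL1 that drives genes of the Per group, was lower (4.57, 4.84 and 4.68 FPKM against 2.95, 2.97 and 3.08 FPKM; -0.51). The contralateral left libraries held Arntl at 2.81, 3.18 and 3.52 FPKM, near the lesion and below every sham library. Per3, Bhlhe41 and Tef lay in the lesion range in contralateral left 5 (6.14, 5.51 and 38.7 FPKM) and below it in contralateral left 1 and 3. With contralateral left as the control 0 of the 18 rose and 0 fell (median 0.304). The hour of day at which tissue was taken is not given, so the time after stroke and the hour of the clock cannot be told apart. The calls of Per3, Tef and Arntl ended in all 6 fits that left out a library, and that of Bhlhe41 without sham 2, sham 3 or 4 h 6 (largest adjusted p 0.108).

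Genes of clotting, prostaglandins and growth factors contributed few called members. Plaur, the receptor that focuses plasmin formation on cell surfaces, read 0.533, 0.198 and 0.320 FPKM in sham and 2.85, 2.46 and 3.64 FPKM at 4 h (1.56 ± 0.15, limma adjusted p = 4.17e-05) and was the 1 of 17 clotting genes to rise. Of 13 prostaglandin and lipoxygenase genes 2 rose, Ptgs2 (1.03), the inducible cyclooxygenase, and Alox12b (1.18). Tgfa, a ligand of the epidermal growth factor receptor, was the 1 of 15 growth factor genes to fall (3.84, 3.44 and 3.96 FPKM against 0.499, 2.18 and 0.877 FPKM; -1.19 ± 0.23, limma adjusted p = 0.0119). Hes1 rose (0.75) and Wnt7a fell (-0.91) among 16 Notch, Wnt and Hedgehog genes. Wnt7a is known as a signal of brain cells to the barrier endothelium. Calls lost on leaving out a library were Ptgs2 and Alox12b (all fits except that without 4 h 2; largest adjusted p 0.151 and 0.118), Tgfa (without sham 3, 4 h 2 or 4 h 6; 0.0686) and Hes1 (all fits except that without sham 1; 0.128).

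Of 18 genes of angiogenic signals and endothelial activation, 5 rose and 3 fell. Angpt2, the ligand that loosens vessels, read 0.392, 0.614 and 0.565 FPKM in sham and 2.01, 2.81 and 1.94 FPKM at 4 h (1.09 ± 0.18, limma adjusted p = 0.005), whereas Angpt1, its stabilising counterpart, read 2.62, 2.60 and 2.96 FPKM against 0.665, 0.995 and 0.924 FPKM (-1.0045 ± 0.15, limma adjusted p = 0.00203). Tek, the receptor shared by both, fell from 3.52, 4.53 and 3.86 FPKM to 1.46, 1.19 and 0.813 FPKM (-1.21 ± 0.16, limma adjusted p = 0.0011). In all 3 genes the lesion and sham libraries were well apart. Ctla2a had the smallest adjusted p of the genes named here together with Hspa1a, with 2.70, 2.13 and 2.22 FPKM in sham and 18.7, 23.3 and 18.8 FPKM at 4 h (2.66 ± 0.20, limma adjusted p = 3.09e-06). It encodes a cysteine protease inhibitor and has a similar neighbour, Ctla2b (0.98), with which it can share reads. Edn1 (0.71), the vessel-constricting endothelin, Icam1 (0.59), an adhesion molecule for leukocytes, Ch25h and, outside the list, Apold1 (1.98), an endothelial early gene, rose as well. The calls of Edn1 (all fits except that without 4 h 2; largest adjusted p 0.167), Icam1 (all 6) and Apold1 (without sham 3 or 4 h 6; 0.0554) were lost when a library was left out.

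Part of the genes of the resting brain endothelium fell. Of 22 tested, 0 rose and 7 fell (median -0.40). Itm2a, a membrane protein enriched in brain vessels, read 47.1, 47.0 and 51.7 FPKM in sham and 18.6, 14.5 and 12.4 FPKM at 4 h (-1.63 ± 0.19, limma adjusted p = 0.000366). Gkn3, an arterial endothelial gene, read 3.43, 3.95 and 4.95 FPKM against 0.250, 0.408 and 0.508 FPKM (-1.87 ± 0.23, limma adjusted p = 0.000452), and the barrier transporter Slco1a4 9.23, 10.6 and 11.5 FPKM against 4.73, 4.43 and 1.51 FPKM (-1.42 ± 0.25, limma adjusted p = 0.00622). All 3 had lesion values well below every sham value. The others were Tek, the thyroid hormone transporter Slco1c1 (-0.85), the growth factor receptor Kdr (-0.64) and the tight junction gene Ocln (-0.52). The barrier transporters Slc22a8 (-1.11) and Slc38a5 (-1.0986), picked after their values were seen, also fell. Of the 22, 13 were lower in every lesion library, against 17.2% of all genes tested, and 4 were higher in every one, against 18.8%. A difference above 0 was found for 5. Cdh5, the adhesion molecule of endothelial junctions, had 0.70, the glucose transporter Slc2a1 1.01 and Pecam1 0.01, none of them called. Cldn5, the main claudin of the barrier, was lower in every lesion library but not called, at -0.89 (35.1, 26.1 and 28.7 FPKM against 19.1, 16.6 and 11.98 FPKM; adjusted p = 0.23). The summed level of the 22 genes was 201 to 214 FPKM in sham and 151 to 159 FPKM at 4 h. In each of the 6 fits that left out a library 5 fell, the calls of Kdr and Ocln being lost, and with contralateral left as the control 1 fell and 1 rose (median -0.14).

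**Figure D3:**
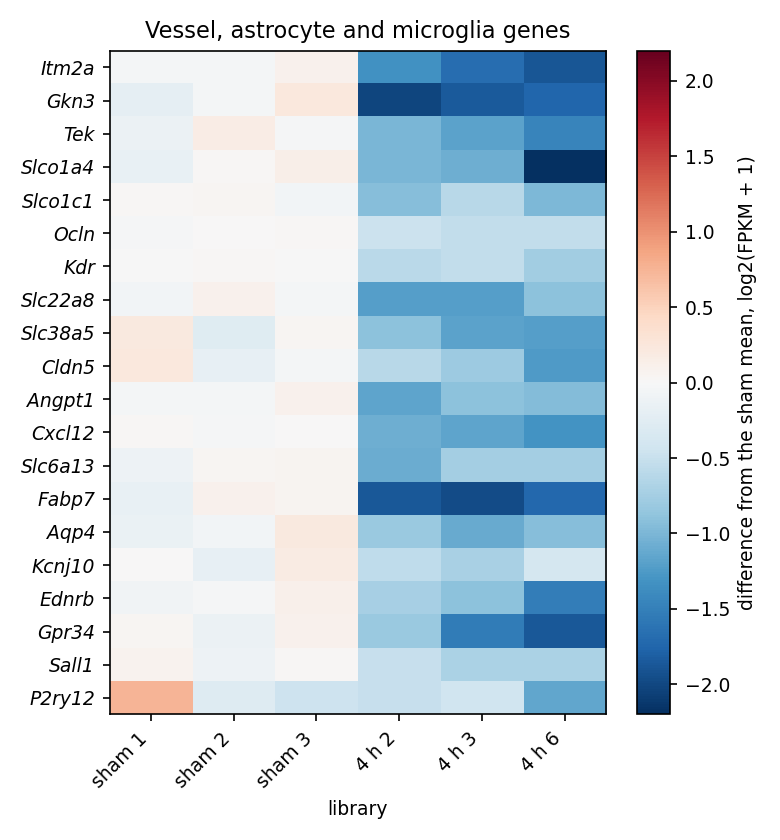
Rows are vessel, astrocyte and microglia genes that fell or, as Cldn5 and P2ry12, were named with lower values, and columns the 6 libraries; the 5 of 22 endothelial and 3 of 20 resting astrocyte genes with a difference above 0 are not shown. Colour gives the difference from the sham mean in log2(FPKM + 1), blue below 0, and the 3 lesion columns are blue in every row, which the choice of rows set, with P2ry12 the row whose sham libraries vary most.

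Astrocyte genes of the resting state were lower in part. Of 20, 3 fell and 0 rose (median -0.35). Fabp7, which carries fatty acids in astrocytes and progenitors, read 30.0, 36.1 and 35.1 FPKM in sham and 8.53, 7.82 and 9.52 FPKM at 4 h (-1.85 ± 0.31, limma adjusted p = 0.00411). Aqp4, the water channel of astrocyte endfeet around vessels, read 33.1, 35.4 and 42.9 FPKM against 20.4, 16.5 and 18.7 FPKM (-0.96 ± 0.17, limma adjusted p = 0.0067), and Kcnj10 (-0.55), the potassium channel of the same endfeet, was the third. Ednrb, the endothelin receptor of astrocytes and vessels, fell by 1.05. The transporter genes Slc1a2 (-0.21) and Slc1a3 (-0.11), which clear glutamate and are among the most abundant astrocyte RNAs, were not called. The call of Kcnj10 ended in all 6 fits that left out a library and that of Aqp4 without sham 3 (adjusted p 0.0533).

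Few reactive astrocyte genes passed the test at 4 h. Lcn2 and Hspb1 were the 2 of 20 that rose. Lcn2 read 0.233, 0.142 and 0.075 FPKM in sham and 3.27, 6.37 and 4.93 FPKM at 4 h (2.32 ± 0.30, limma adjusted p = 0.000756). Of the 20, 11 were higher in all lesion libraries, against 18.8% of all genes tested, and the median was 0.43. Gfap, the filament protein of reactive astrocytes, overlapped, at 51.1, 42.7 and 52.99 FPKM in sham and 68.3, 47.5 and 51.0 FPKM (0.17, adjusted p = 0.773).

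Oligodendrocytes, fibroblasts and interneurons gave few calls. Of 19 myelin genes, Ugt8a (-0.99), which makes the myelin lipid galactosylceramide, and Opalin (-0.97) fell, of 14 fibroblast genes Slc6a13 (-0.86), a GABA and taurine transporter of the meninges, and of 15 interneuron genes Calb1 (-0.78), a calcium buffer. Slc6a13 read 2.16, 2.50 and 2.56 FPKM in sham and 0.605, 1.03 and 1.03 FPKM at 4 h. Among the 10 largest called falls was also Fam168a, with 20.9, 21.5 and 19.8 FPKM against 3.91, 4.16 and 8.40 FPKM (-1.81). Others were the G protein subunit gene Gng11 (-1.40), Fam180a (-1.29), the protease inhibitor gene Serpinb1a (-1.28) and Gm12371 (-1.42). Among the 15 largest called rises were Gm12840 (2.47) and Arrdc2 (2.02), an arrestin-like adaptor. Of these genes Gm12371, Gm12840 and Arrdc2 held their call in all 6 fits that left out a library. Ugt8a lost it without sham 3, 4 h 3 or 4 h 6 (largest adjusted p 0.128), Slc6a13 without sham 2, sham 3 or 4 h 2 (0.0948), Fam168a without sham 2, sham 3, 4 h 2 or 4 h 3 (0.0609) and Fam180a without sham 1 or 3 (0.0686). Gng11 and Serpinb1a lost it in all fits except that without 4 h 2 (0.187 and 0.173), and Opalin and Calb1 in all 6.

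Neuronal and structural lists gave no calls by limma. These were the neuronal and synaptic list (24 genes, median 0.11, 0 at an unadjusted p under 0.05), the cortical layer genes (17, 0.06, 5 at that p), the striatal genes (14, 0.21, 2) and oligodendrocyte precursor genes (14, 0.01, 3). The summed striatal level was 112 to 274 FPKM at 4 h and 114 to 139 FPKM in sham, so the lesion punches differed more from each other there. Cytosolic ribosomal protein genes (21, median -0.45) and nuclear-encoded respiratory chain genes (21, median -0.41) had 0 calls as well, with 4 and 5 members at an unadjusted p under 0.05. Of the respiratory chain genes 13 were lower in all lesion libraries, against 17.2% of all genes tested. The level of both lists differed between libraries. Ribosomal medians were -0.16, -0.35 and -0.80 in 4 h 2, 3 and 6 and 0.54, 0.58 and -0.49 in contralateral left 1, 3 and 5. Interferon-stimulated (18 genes), unfolded protein response (21), sterol synthesis (22), matrix (18), pericyte (12), choroid plexus (11) and mitochondrially encoded (15) genes held no called member either, with 4, 5, 4, 6, 3, 0 and 0 members at that p. Ttr, the choroid plexus transthyretin, ran from 0.807 to 576 FPKM within the 4 h group alone.

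Markers of blood cells did not pass the test. The 4 neutrophil markers that could be tested had 0 calls, a median of 1.17 and 3 members at an unadjusted p under 0.05. All 14 in the data, most of them below the filter, summed to 9.46 to 25.0 FPKM at 4 h and 2.31 to 7.38 FPKM in sham. S100a8, a calcium-binding protein abundant in neutrophils, overlapped, at 1.31, 0.254 and 0.284 FPKM in sham and 1.496, 5.09 and 1.06 FPKM (1.03, adjusted p = 0.274). The 15 monocyte and macrophage markers had 0 calls, 1 at that p, and a median of -0.03, and the 3 lymphocyte markers had 0 calls and 1 at that p. The 7 red blood cell genes tested had 0 calls and 0 at that p. With those below the filter, 9 in all, the list summed to 256 to 1010 FPKM at 4 h and 550 to 676 FPKM in sham. Hba-a1, a hemoglobin chain, read 181, 207 and 37.5 FPKM at 4 h against 114, 95.3 and 98.4 FPKM. Library 4 h 6 was thus lowest in hemoglobin and also in Ccl2, Ccl3, Ccl4, Ccl12 and Hmox1 among the lesion libraries. The part of blood left in the tissue in those values was not tested.

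**Figure D4:**
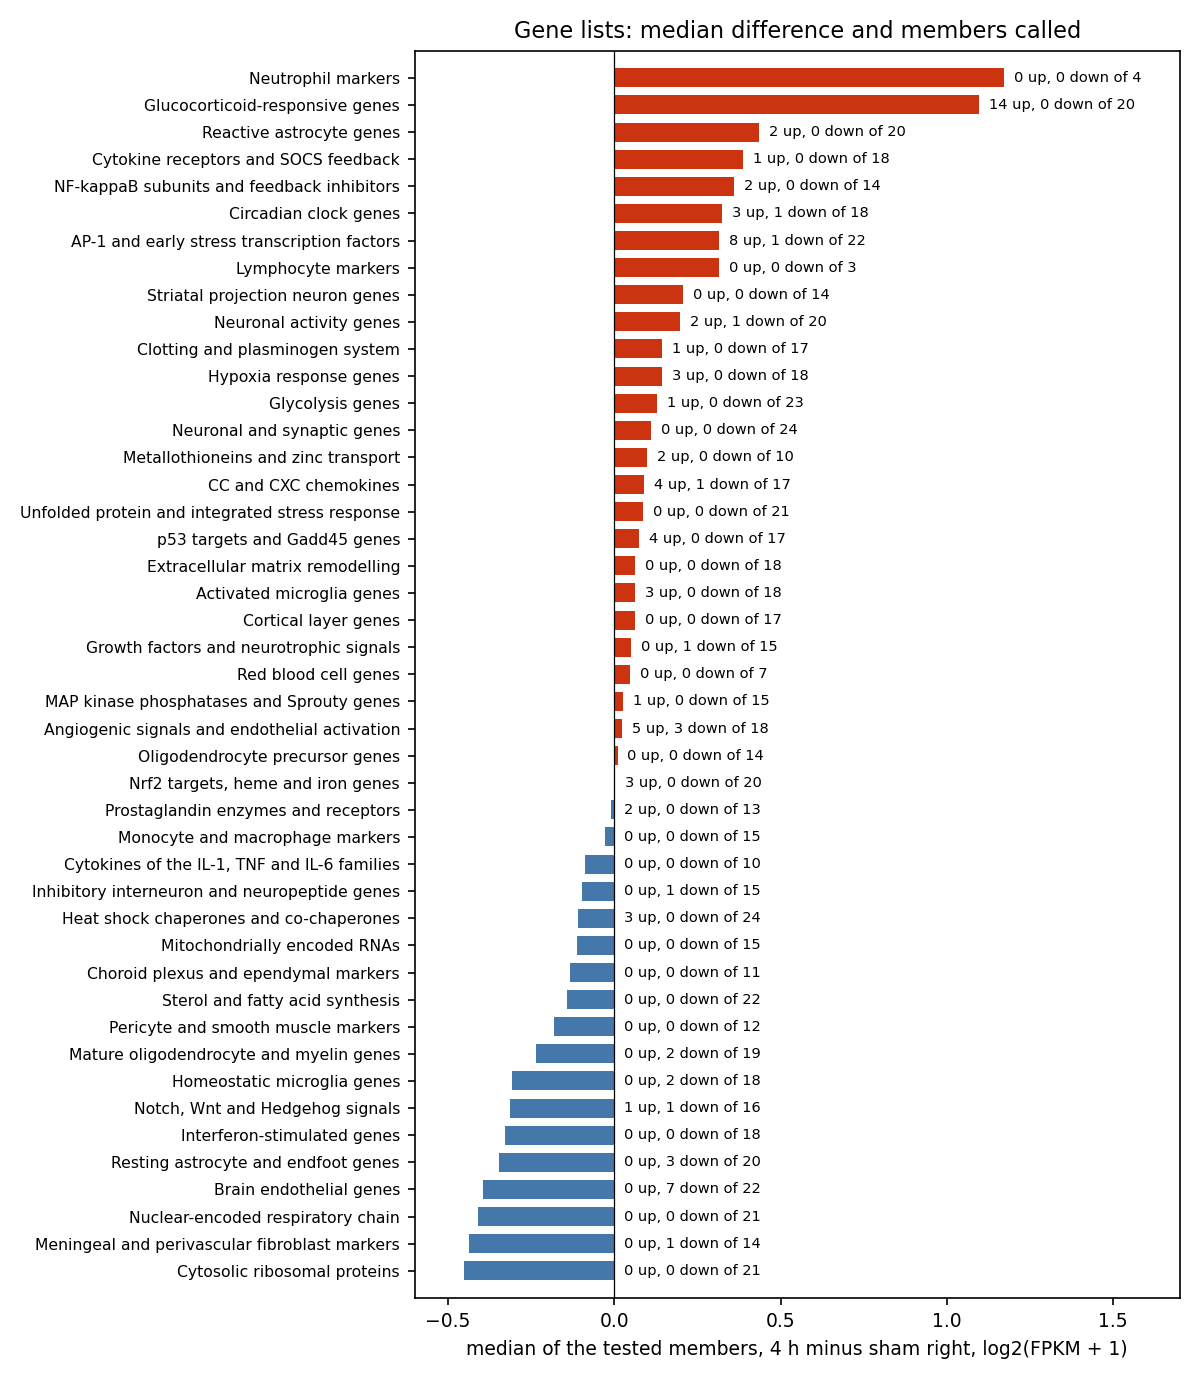
Bars give the median log2(FPKM + 1) difference of 4 h from sham right over the tested members of each of the 45 gene lists, and the text beside each bar gives how many members were called. The glucocorticoid list, with 14 of 20, has the most calls and a median of 1.097, the neutrophil bar rests on 4 genes with 0 calls, and the lowest bars are the ribosomal, fibroblast, respiratory chain and endothelial lists.

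To ask which differences had another size later, the lesion at 4 h was tested against the lesion at 1 day, a comparison without the sham libraries. It gave 172 genes (1.23%), 53 (0.378%) higher and 119 (0.849%) lower at 4 h, while 7.81% and 12.6% of all genes tested were higher or lower in every 4 h library than in every 1-day library. Of the 185 genes above sham at 4 h, 41 were also above the 1-day level, 6 were below it and 138 were not called in this comparison. Of the 121 below sham, 18 were also below 1 day, 0 above it and 103 not called. The remaining 107 of the 172 were not called against sham. Without 4 h 2, 3 and 6 the count was 99, 105 and 85, and without 1 day 1, 3 and 4 it was 124, 70 and 97.

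Genes higher at 4 h than at 1 day included Depp1, Ctla2a, Nptx2 and the Hsp70 genes. Of all genes tested, 0.378% were called higher and 0.849% lower at 4 h. By list, 2 of 24 chaperone genes were higher and 1 lower, and of 20 neuronal activity genes 1 was higher. Of 18 genes of angiogenic signals and endothelial activation 1 was higher and 1 lower. Of 24 neuronal and synaptic genes 0 were higher, and of 22 brain endothelial genes 0 were higher and 1 lower. Depp1, a target of FoxO factors, read 3.46, 2.54 and 4.34 FPKM at 4 h and 0.576, 0.159 and 0.329 FPKM at 1 day (1.71, limma adjusted p = 0.0012). Ctla2a fell from its 4 h level to 6.02, 12.3 and 6.21 FPKM (1.27, limma adjusted p = 0.00422), Nptx2 to 13.5, 15.5 and 20.2 FPKM (1.45, limma adjusted p = 0.0119) and Hspa1a to 10.6, 10.07 and 11.4 FPKM (1.07, limma adjusted p = 0.00617). No 1-day value of these 4 genes reached the 4 h range. Hspa1a is not among the 10 largest called differences. Beside Depp1, Ctla2a and Nptx2 these were Gm12840 (2.17), Apold1 (1.64), Arrdc2 (1.55), Mir670hg (1.27), the linker histone gene Hist1h1c (1.23), Klhl40 (1.18) and the protease gene Htra4 (1.12). Hist1h1c was level with sham at 4 h (17.2, 14.1 and 14.8 FPKM in sham against 15.5, 13.9 and 12.5 FPKM) and lower at 1 day (5.72, 4.98 and 5.40 FPKM). Of the glucocorticoid list 1 of 20 was higher at 4 h than at 1 day (Pdk4, 0.86) and 1 lower (Lcn2), so most of its difference in level was not called: Sgk1 at 1 day read 14.2, 19.3 and 28.6 FPKM (0.94, adjusted p = 0.187).

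Genes lower at 4 h than at 1 day were led by reactive glia and chemokines. Ptx3, a secreted pattern receptor, read 1.05, 0.659 and 0.332 FPKM at 4 h and 18.5, 27.8 and 30.1 FPKM at 1 day (-3.97 ± 0.27, limma adjusted p = 8.92e-07), and Tgm1, a transglutaminase, 0.315, 0.263 and 0.192 FPKM against 9.69, 14.8 and 18.7 FPKM (-3.57 ± 0.21, limma adjusted p = 2.25e-07). Neither was called against sham at 4 h. Of all genes tested, 0.849% were called lower at 4 h than at 1 day. Of the 20 reactive astrocyte genes 12 were, among them Gfap (-1.89), Serpina3n (-2.23) and Timp1 (-2.06). Of the 17 chemokine genes 6 were, with Ccl2 at 11.5, 19.2 and 15.1 FPKM at 1 day (-2.33, limma adjusted p = 0.0012), Ccl12 (-2.86) and Ccl7 (-2.64), whereas Ccl3 (0.94, adjusted p = 0.379) and Ccl4 (0.42, adjusted p = 0.804) were not called between these times. Lcn2 (-1.96) was above sham at 4 h and higher again at 1 day, and Mmp3 (-1.79), a matrix protease, was at 0.442, 1.503 and 0 FPKM at 4 h.

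Among the genes named in this comparison 12 of the 28 called lost their call in at least 1 fit without a library. They were Hspa1b (without 1 day 3; adjusted p 0.0662), Gm12840 (without 4 h 3 or 1 day 3; largest 0.0653), Hist1h1c (without 4 h 2 or 1 day 3; 0.0708) and Nptx2 (without 4 h 3, 1 day 1 or 1 day 3; 0.0684). Timp1 lost its call without 4 h 6 or any 1-day library (0.183), Mmp3 without 4 h 2, 4 h 6, 1 day 3 or 1 day 4 (0.163), Hmox1 in the same 4 fits (0.187) and Gm12371 without 4 h 2, 4 h 6, 1 day 1 or 1 day 3 (0.198). Arrdc2 lost it in all 6 fits (0.23), Apold1 and Tek in all except that without 4 h 2 (0.21 and 0.161) and Aqp4 in all except that without 1 day 1 (0.147). Ptx3, Tgm1, Gfap, Serpina3n, Lcn2, Ccl2, Ccl7, Ccl12, Ctla2a, Hspa1a, Hspb1, Depp1, Mir670hg, Klhl40, Htra4 and Pdk4 were called in all 6.

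**Figure D5:**
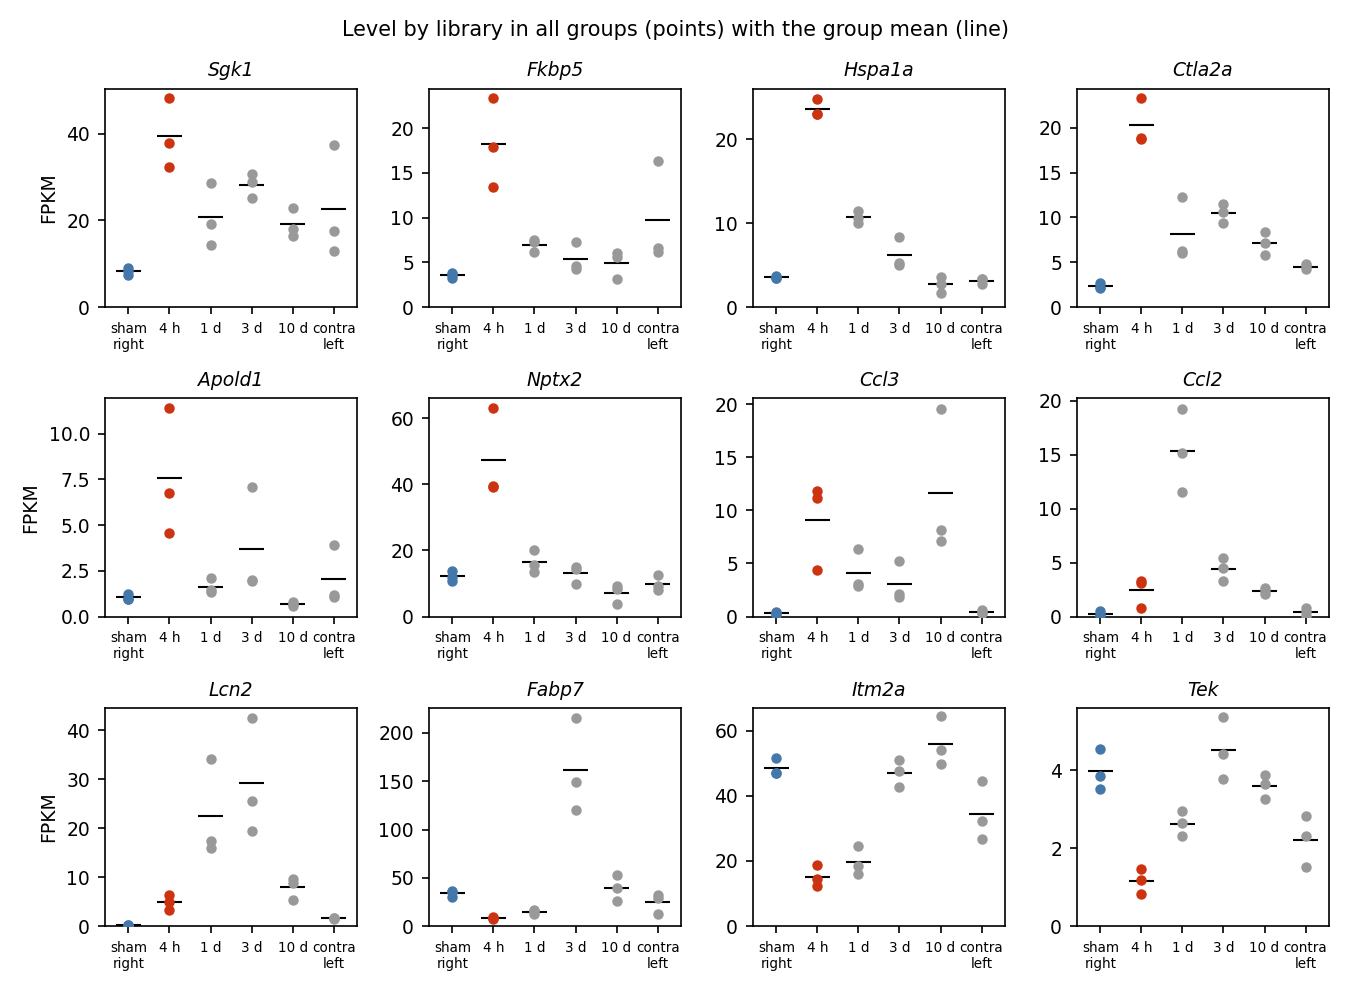
Each panel shows a gene's FPKM by library (points) and the group mean (line) in sham right, 4 h (red), 1 day, 3 days, 10 days and contralateral left. Hspa1a, Ctla2a and Nptx2 have their highest group mean at 4 h, Ccl2 has it at 1 day, and Lcn2 and Fabp7 have it at 3 days, while Itm2a and Tek have their lowest at 4 h.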

How the data were processed

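Total RNA of brain punches was sequenced in 18 libraries, 3 mice in each of 6 groups, so each group mean rests on 3 animals. The contralateral left and sham right groups share the numbers 1 and 3. Their titles do not say whether these are punches of the same mice, and the main fit treated all libraries as independent. P-values rest on a spread pooled over all 6 groups, not on that of the 2 groups compared alone. The submitters' processing notes name build GRCm38 with StringTie 1.3.4d, HISAT2 2.1.0 and Trimmomatic 0.36; the gene annotation, settings and strand handling are not given in the sources used here, so antisense and near-identical genes cannot be separated. The values are FPKM per gene as deposited by the authors. FPKM depends on the sum of all fragments, so a change in abundant RNA shifts all other genes. Per gene the authors also deposited p-values and q-values without naming the groups compared; they entered no test. The deposited file held 34921 complete entries, ordered by q-value, and an incomplete entry at its end that was dropped. Its leading p-value, read with the q-value beside it, implies 38022 entries, so about 3101 were not analysed here. Names and coordinates came from GENCODE release M21 (34837 entries matched) and promoters from RefSeq.

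Genes with at least 1 FPKM in 3 or more of the 18 libraries were fitted as log2(FPKM + 1) with limma 3.58.1 in R 4.3.3 (trend and robust moderation, statmod 1.5.0, data.table, version 1.17.8), with a mean for each of the 6 groups and no covariate. P-values were adjusted by Benjamini-Hochberg over all 14016 genes of a comparison, and a gene was called under 0.05. The fit was tested on simulated data. The groups, the 45 gene lists and the rules were chosen with earlier results of these data known. Genes named were the 15 largest rises and 10 largest falls at 4 h, the 10 largest differences in each direction from 1 day, up to 2 called members of each list in each direction (all where 5 or fewer were called) and a panel of 30 genes. The largest rises, falls and differences were taken among called genes whose groups did not overlap and whose higher group mean reached 1 FPKM. Further members of the glucocorticoid, AP-1 and endothelial lists, uncalled list members, Zfp36, Adcyap1, Ednrb, Slc22a8, Slc38a5 and Ctla2b were added after their values were seen. Depth was estimated from low values of 7420 single-exon genes multiplied by length, but 38.5% to 43.4% of such values in the 6 libraries lay near a whole multiple, so no counts were derived. Alternatives were other pseudocounts (0.1 and 0.5), filters, scalings and controls, the 2 groups alone, a replicate block and leaving out libraries.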

Additional observations from a re-analysis of the deposited data

Results flagged for a closer look

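The genes below differed both from sham and between the lesion at 4 h and at 1 day, by a limma test of that difference with Benjamini-Hochberg adjustment over 14016 genes, or belong to the fixed panel and differed between these times. The values are 4 h minus 1 day in log2(FPKM + 1). Higher at 4 h were Gm12840 (2.17), the endothelial early gene Apold1 (1.64), Arrdc2 (1.55), Ctla2a (1.27) and the Hsp70 genes Hspa1b (1.09) and Hspa1a (1.07). Lower at 4 h were the vessel receptor gene Tek (-0.76), the water channel gene Aqp4 (-0.79), Gm12371 (-0.97), the small chaperone gene Hspb1 (-1.0045), Hmox1 (-1.73), Gfap (-1.89), Lcn2 (-1.96) and Ccl2 (-2.33). Tek, Aqp4 and Gm12371 were below sham at 4 h, while Hspb1, Hmox1, Lcn2 and Ccl2 were above it and higher still at 1 day.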

How the results depend on the processing

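Of the 99 genes named here and called against sham, all kept their direction under the alternatives run, except that with contralateral left as the control Ier2 had 0.0059 (adjusted p 0.984) and Sult1a1 -0.31 (adjusted p 0.438). With that control 33 remained called; 79 did after rescaling without mitochondrially encoded genes, 59 with no filter, and 94 with quantile normalization, with median ratio scaling or in the 2 groups alone. Leaving out each of the 6 libraries in turn, 43 remained called in all of these fits and 20 in none. The 306 genes called against sham became 761 with only the 2 groups compared, 1806 without contralateral left 5 and stroke 10 days 5, 176 with contralateral left as the control and 90 to 194 when a library was left out; the other alternatives gave 207 to 444. The 172 genes called against 1 day became 65 with only the 2 groups compared, 706 without contralateral left 5 and stroke 10 days 5 and 70 to 124 when a library was left out, against 125 to 205 otherwise. With the replicate number as a block the counts were 106 and 13, and 46 of the 99 named genes remained called. The lesion and sham groups share only the numbers 2 and 3, and the deviations of those pairs correlated at -0.23 and -0.03, so the pairing rests on a number alone. The causes of these shifts were not tested. No count test was possible on FPKM, and depth is known only roughly.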

Other observations

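Mir7085, a 66-base microRNA entry inside the locus of the glucose-6-phosphate transporter gene Slc37a4 (GRCm38 chr9:44400423-44400488), stands at the top of the authors' deposited table, with a p-value of 1.11e-11 and a q-value of 4.24e-07. It was below the filter used here. It read 0.347, 0.270 and 0.313 FPKM in the 4 h libraries and 0.0014, 0 and 0 FPKM in sham. At the rough nominal depth these values correspond to 0.402, 0.385 and 0.616 fragments, less than 1 fragment in each library. The surrounding gene Slc37a4 read 5.69, 6.22 and 5.88 FPKM in sham and 8.58, 7.57 and 7.51 FPKM at 4 h.

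Several short entries over microRNA genes switched between high and near-0 values within a group. Mir8114 (111 bases) read 296, 239 and 240 FPKM in sham and 272, 0.121 and 0.180 FPKM at 4 h, which gave the lowest log2 fold change of all genes tested (-5.18) without a call (limma adjusted p = 0.271). Gm47308 (107 bases) read 47.1, 0.119 and 0.136 FPKM in sham and 45.4, 41.6 and 35.9 FPKM at 4 h, the highest log2 fold change of all genes tested (3.41, limma adjusted p = 0.428).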
